A study of Mus musculus with 10 samples.

Results

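Bst1 and other enzymes of NAD metabolism were examined in RNA from a normal mouse cholangiocyte line (NMC, epithelial cells of the bile duct) grown as 3D double spheroids. The genes were chosen by symbol, namely Bst1, Cd38, Nampt, Naprt, Nmnat1, Nadk, Nmrk1, Nnmt, Nt5e and Sirt1, and all 10 of them were among the 18407 genes of the count table. There were 5 libraries from spheroids in a laminin-rich matrix (laminin and collagen I at 3:1 by volume) and 5 from spheroids in collagen I at 1 mg/mL, all taken on day 6. Neither matrix received a further treatment, and every library came from that line, so the matrix is what the labels give as different. Which libraries stem from separate cultures is not said beyond the words biological replicates, so a p-value here covers the spread of these 10 samples, which may be technical. Bst1 was taken because it was the gene called lower between these matrices, and the others for their place in the pathway with earlier results of these data known. The difference of Bst1 is therefore given as a description, and nothing is supported with it.

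NAD carries electrons in oxidation and reduction reactions and is also consumed as a substrate. Mammalian cells rebuild it mainly from nicotinamide, through nicotinamide mononucleotide (NMN), and from nicotinic acid or tryptophan by separate routes. Consumers include the sirtuin deacylases, the ADP-ribosyltransferases, and the ectoenzymes BST1 (CD157) and CD38, which are related proteins that act on NAD outside the cell or in vesicles. BST1 was first described on bone marrow stromal cells and is also found on myeloid cells and epithelia.

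Bst1 lies on chromosome 5 from 43818885 to 43843986 in GRCm38, on the plus strand, and Cd38 follows it on the same strand from 43868553 to 43912375. RefSeq promoter sequences (GRCm38.p6, 250 bases before to 50 after a start given by RefSeq) were found for 7 of the 10 genes. None was at hand for Bst1, Naprt and Nnmt. Those of Cd38 (chr5:43868559-43868858, plus strand), Nampt (chr12:32820085-32820384, plus strand) and Sirt1 (chr10:63338986-63339285, minus strand) are shown, since they belong to the least abundant of the genes with counts, the most abundant, and one between. Each of these windows lies wholly within the annotated span of its gene, so its start is not the outermost one annotated. Capitals mark CG dinucleotides, the same on both strands.
Cd38: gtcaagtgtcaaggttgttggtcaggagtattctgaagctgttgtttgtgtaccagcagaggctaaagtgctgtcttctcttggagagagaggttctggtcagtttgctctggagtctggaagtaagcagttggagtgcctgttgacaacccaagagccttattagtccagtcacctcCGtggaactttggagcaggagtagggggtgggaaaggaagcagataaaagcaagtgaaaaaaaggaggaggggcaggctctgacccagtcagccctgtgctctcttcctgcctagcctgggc
Nampt: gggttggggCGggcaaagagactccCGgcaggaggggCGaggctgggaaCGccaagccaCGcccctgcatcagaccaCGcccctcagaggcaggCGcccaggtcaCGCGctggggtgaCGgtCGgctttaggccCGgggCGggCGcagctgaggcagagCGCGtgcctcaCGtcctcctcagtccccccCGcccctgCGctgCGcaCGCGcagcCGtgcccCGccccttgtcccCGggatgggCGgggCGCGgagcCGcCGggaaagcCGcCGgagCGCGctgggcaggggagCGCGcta
Sirt1: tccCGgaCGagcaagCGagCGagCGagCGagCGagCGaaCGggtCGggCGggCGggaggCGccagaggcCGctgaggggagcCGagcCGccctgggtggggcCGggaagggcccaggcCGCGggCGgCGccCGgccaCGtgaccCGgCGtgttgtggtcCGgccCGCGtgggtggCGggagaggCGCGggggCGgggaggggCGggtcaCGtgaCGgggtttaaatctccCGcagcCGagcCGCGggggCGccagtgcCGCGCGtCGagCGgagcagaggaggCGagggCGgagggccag
The Cd38 promoter held 1 CG, the Nampt promoter 36 and the Sirt1 promoter 47. The median over 32851 RefSeq promoters of that length was 7, and 94.6% held at least 1. The letters CACGTG, which read the same on both strands and overlap a CG, occurred 2 times in the Sirt1 window and in neither of the others, and 7.15% of all promoters held them. These counts describe the windows only.

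The libraries held 4424725 to 7468219 counts in laminin and 4913441 to 8129979 in collagen. Levels are given as CPM, that is, counts after division by TMM-adjusted library totals. A count of 0 in a single library allows up to 3 counts, or 0.365 to 0.691 CPM, by counting error only. Of 17 cholangiocyte markers, 15 averaged 1 CPM or more, led by the keratins Krt8, Krt19 and Krt18, and they summed to 4686 to 6730 CPM in laminin and 4836 to 6935 CPM in collagen. The sum rests on the abundant genes, and less abundant ones differed in both directions. Aqp1 averaged 37.2 CPM in laminin and 19.5 CPM in collagen, Slc10a2 9.13 and 3.99 CPM, and Krt7 3.34 and 6.80 CPM in the same order (named after their values were seen). Ggt1 and Cldn4 were below 1 CPM.

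Of the 10 genes, 8 passed the filter on low counts and were fitted with all 10789 genes tested. Over the 10 libraries, counts per length ordered them as Nampt, Nadk, Nt5e, Bst1, Nmrk1, Sirt1, Naprt and Nmnat1. Nampt, the rate-limiting enzyme of NAD salvage from nicotinamide, averaged 61.2 ± 10.5 CPM per kb of its longest transcript, and Nadk, which phosphorylates NAD to NADP, 46.5 ± 6.19 (SD, n = 10). Nt5e followed at 19.3 ± 5.47 and Bst1 at 16.7 ± 7.88 CPM per kb. Nmrk1 stood at 8.91 ± 1.69, Sirt1 at 6.46 ± 1.82, Naprt at 4.55 ± 1.57 and Nmnat1 at 3.10 ± 0.656 CPM per kb. Of neighbours in that order, Nt5e and Bst1, Bst1 and Nmrk1, and Naprt and Nmnat1 differed by less than the larger of their SDs, and the others by more.

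Bst1, whose product cleaves NAD and can form cyclic ADP-ribose, was lower in every laminin library than in any collagen library. It stood at 45.2, 17.8, 24.3, 26.5 and 28.3 CPM in laminin replicates 1 to 5, against 54.5, 70.7, 80.1, 59.0 and 70.7 CPM in collagen replicates 1 to 5. The groups did not overlap, and laminin replicate 1 came nearest to the collagen libraries. The means were 28.4 ± 10.2 CPM in laminin and 67.0 ± 10.2 CPM in collagen (SD, n = 5 each), a fold of 0.426 and a log2 difference of -1.23 (SE 0.21, 95% interval -1.69 to -0.78). These values rest on 98 to 323 counts per laminin library and 290 to 659 per collagen library. In bulk RNA, fewer cells that make a transcript and less of it per cell cannot be told apart.

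Bst1 was the only one of the 8 genes called in edgeR (1 lower, 0 higher), where 0.00927% of all genes were called lower and 0.139% higher. It was also the only one of them with groups that did not overlap, against 3.23% of all genes. As Bst1 was chosen on this contrast, nothing is read from either count. The edgeR quasi-likelihood call that chose it, at a Benjamini-Hochberg adjusted p of 0.0465, was kept in 2 of 10 fits with a library left out, those without collagen replicate 1 or laminin replicate 1. It was lost without any of the other libraries (adjusted p 0.00881 to 0.151 over the 10 fits), while the log2 difference ran from -1.47 to -1.12. The call was also lost without the libraries of code letter D, E or F (adjusted p 0.100, 0.105 and 0.159 in edgeR) and with the replicate number as a block (0.226). These were 4 of the 13 alternatives other than single libraries left out, and the rest kept the call. All of these fits use the contrast on which Bst1 was chosen.

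**Figure D1:**
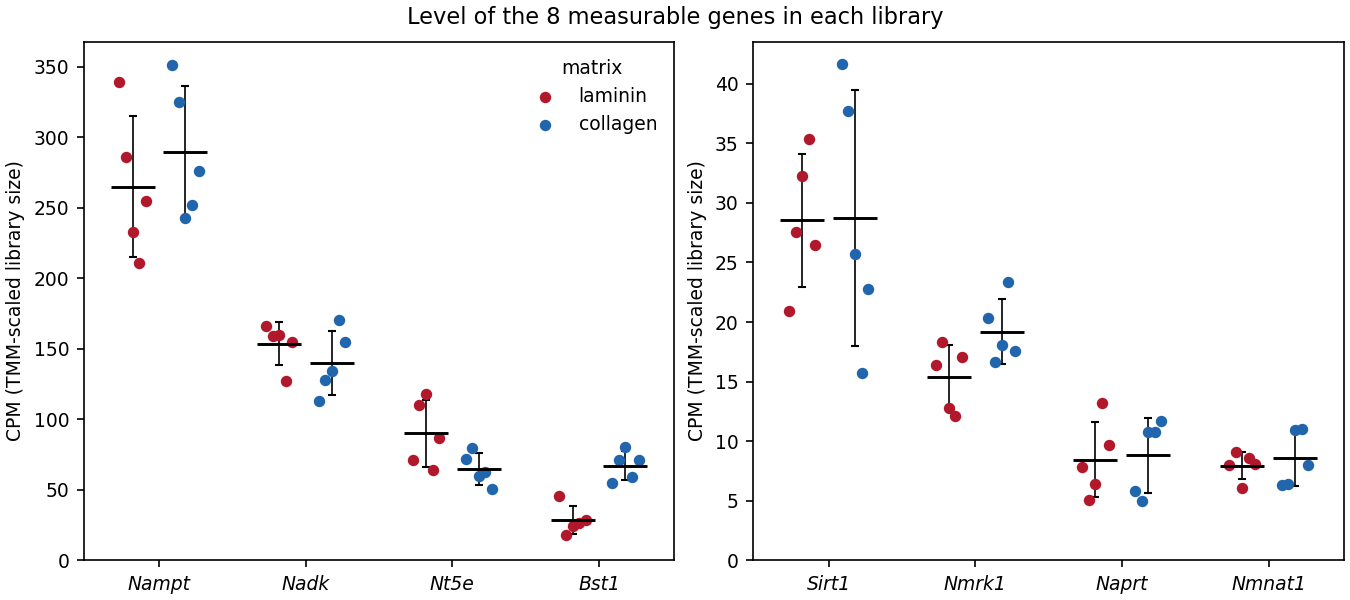
CPM of the 8 genes that passed the filter in each library, with 5 laminin libraries (red, left) and 5 collagen libraries (blue, right) per gene, and bars for mean ± SD. Bst1 is at 17.8 to 45.2 CPM in laminin and 54.5 to 80.1 CPM in collagen, and the groups overlap for the other 7 genes.

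The code of each library starts with this letter, whose meaning the labels leave unsaid. A letter occurs in 1 matrix only, so letter and matrix cannot be told apart. Bst1 averaged 29.1 CPM in the 3 laminin libraries of letter E and 27.4 CPM in the 2 of letter F, against 68.4 CPM in the 3 collagen libraries of letter B and 64.9 CPM in the 2 of letter D. The averages of the letters of 1 matrix thus lay close together for this gene. Letter E alone spanned the full laminin range (17.8 to 45.2 CPM) and letter B the full collagen range (54.5 to 80.1 CPM). The difference of Bst1 was -1.31 to -1.18 on the log2 scale when any letter was left out or any other processing was used. The averages of Sirt1, by contrast, were 35.0 CPM in letter B and 19.2 CPM in letter D within collagen.

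Cd38, the other cyclase of the family, was close to undetected. Its counts were 0, 3, 0, 2 and 1 in laminin replicates 1 to 5 and 4, 2, 3, 1 and 2 in collagen replicates 1 to 5. The sums were 6 and 12 counts, and Bst1 gave 873 counts in laminin and 2172 in collagen. Cd38 did not pass the filter and was not tested. Sarm1, an intracellular NAD hydrolase known from axon degeneration, had 28 counts over all libraries and was not tested either.

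Among the genes placed around Bst1 on chromosome 5, none was called in edgeR. Fbxl5, a subunit of a ubiquitin ligase that senses iron, runs on the opposite strand from 43744615 to 43821638 and shares 98 exonic bases with Bst1, or 3.0% of the exonic bases of Bst1. It stood at 98.2 ± 10.9 CPM in laminin and 106 ± 7.32 CPM in collagen (SD, n = 5 each), a log2 difference of -0.11 (SE 0.10). Whether counting used strand is not given in the sources used here, so reads in those shared bases could have been counted for either gene.

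Cc2d2a, a ciliary gene, gave a log2 difference of -0.05 (SE 0.18) and Tapt1 one of -0.06 (SE 0.12). Fgfbp1, a secreted carrier of fibroblast growth factors, spread widely, with 109, 32.9, 28.6, 7.34 and 33.4 CPM in laminin replicates 1 to 5 and 24.9, 45.0, 35.7, 91.4 and 58.4 CPM in collagen replicates 1 to 5. Laminin replicate 1, the laminin library highest in Bst1, was also the highest in Fgfbp1, and the groups overlapped. In collagen the highest libraries differed, replicate 4 for Fgfbp1 (91.4 CPM) and replicate 3 for Bst1 (80.1 CPM). Prom1 did not pass the filter and stood at 0.332 ± 0.312 CPM in laminin and 0.210 ± 0.289 CPM in collagen. The adjusted p of the 4 tested neighbours ran from 0.717 to 0.942 in edgeR.

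**Figure D2:**
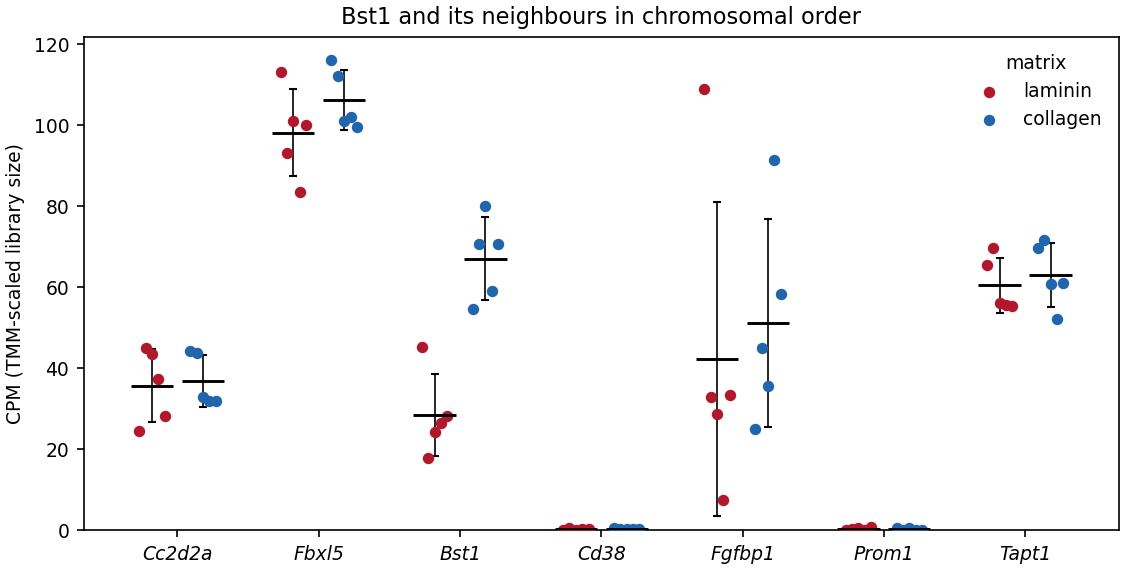
CPM in each library of Bst1 and 6 genes around it, in their order along chromosome 5, with laminin (red, left) and collagen (blue, right) and bars for mean ± SD. Bst1 is the one whose groups do not overlap, Cd38 and Prom1 lie near 0, and Fgfbp1 spans 7.34 to 109 CPM within laminin.

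Nt5e encodes CD73, a surface enzyme that dephosphorylates AMP to adenosine and can convert NMN to nicotinamide riboside. It stood at 70.8, 110, 118, 64.3 and 86.4 CPM in laminin replicates 1 to 5, against 71.5, 79.4, 59.4, 62.5 and 50.4 CPM in collagen replicates 1 to 5. Laminin replicates 2, 3 and 5 were above every collagen library, and replicates 1 and 4 were within the collagen range. The means were 89.8 ± 23.5 CPM in laminin and 64.6 ± 11.2 CPM in collagen (SD, n = 5 each), a log2 difference of 0.47 (SE 0.18, 95% interval 0.08 to 0.87). Nt5e did not pass in edgeR (adjusted p = 0.336), with adjusted p from 0.0809 upward over the alternatives.

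Per length, the order of these surface enzymes differed between the matrices. Nt5e exceeded Bst1 in all 5 laminin libraries, by 1.12 to 4.41 times (median 2.18), and was below it in all 5 collagen libraries, at 0.509 to 0.937 times (median 0.757). Lengths were those of the longest annotated transcripts, 3995 nt for Nt5e and 2856 nt for Bst1, and the order in collagen rests on them: without division by length, Nt5e was at 0.712 to 1.31 times the CPM of Bst1 in collagen (median 1.06), and at 1.57 to 6.17 times in laminin. Because Bst1 was chosen on the contrast, this order is a description.

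**Figure D3:**
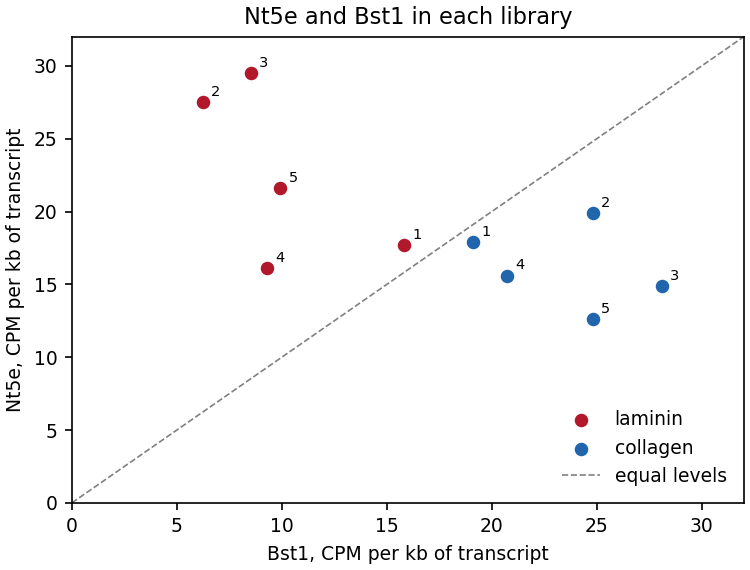
CPM per kb of transcript of Bst1 (horizontal) and Nt5e (vertical) in the laminin (red) and collagen (blue) libraries, numbered by replicate, with a dashed line of equal levels. Every laminin library lies above the line and every collagen library below it, with laminin replicate 1 and collagen replicate 1 nearest to it.

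None of the genes that make NAD passed the test. Nampt stood at 339, 286, 233, 211 and 255 CPM in laminin replicates 1 to 5, against 351, 325, 243, 252 and 276 CPM in collagen replicates 1 to 5. The groups overlapped over most of their range, and the log2 difference was -0.13 (SE 0.15, 95% interval -0.44 to 0.19, adjusted p = 0.790 in edgeR). Nmrk1, the kinase that turns nicotinamide riboside into NMN, stood at 16.4, 18.3, 12.8, 12.1 and 17.1 CPM in laminin and 20.3, 16.6, 18.1, 23.4 and 17.6 CPM in collagen. Laminin replicates 1, 3 and 4 were below the collagen range, and the difference was -0.33 (SE 0.16, 95% interval -0.66 to 0.01, adjusted p = 0.439 in edgeR).

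Naprt, which starts NAD synthesis from nicotinic acid, and Nmnat1, the nuclear enzyme that turns NMN into NAD, were both low. Naprt ranged from 5.09 to 13.2 CPM in laminin and from 5.00 to 11.7 CPM in collagen, and Nmnat1 from 6.08 to 9.08 CPM in laminin and from 6.35 to 11.0 CPM in collagen. Their log2 differences were -0.06 (SE 0.30) and -0.11 (SE 0.21), with adjusted p of 0.953 and 0.885 in edgeR. For Naprt the 95% interval of -0.71 to 0.59 still allows a change of over 1.5 times in either direction. Naprt averaged 11.4 CPM in letter F and 6.44 CPM in letter E within laminin, and 11.2 CPM in letter D and 7.20 CPM in letter B within collagen.

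Nadk stood at 166, 159, 160, 127 and 155 CPM in laminin and 113, 128, 134, 170 and 155 CPM in collagen, replicates 1 to 5. The laminin libraries lay wholly within the collagen range, and the difference was 0.13 (SE 0.12, 95% interval -0.14 to 0.40, adjusted p = 0.733 in edgeR). Sirt1, a nuclear deacetylase that consumes NAD, stood at 20.9, 27.6, 32.3, 35.4 and 26.5 CPM in laminin and 41.7, 37.7, 25.7, 15.7 and 22.8 CPM in collagen, replicates 1 to 5. Collagen held both its highest and its lowest value, and the difference of -0.01 (SE 0.24, 95% interval -0.53 to 0.51) had an adjusted p of 0.990 in edgeR. Without the collagen libraries of letter B it was 0.54 and did not pass.

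Nnmt, which methylates nicotinamide and so removes it from salvage, had 0 counts in all 10 libraries. Summed over the libraries of a matrix, 3 counts allow up to 0.100 CPM in laminin and 0.0936 CPM in collagen. No difference was detectable at this depth.

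**Figure D4:**
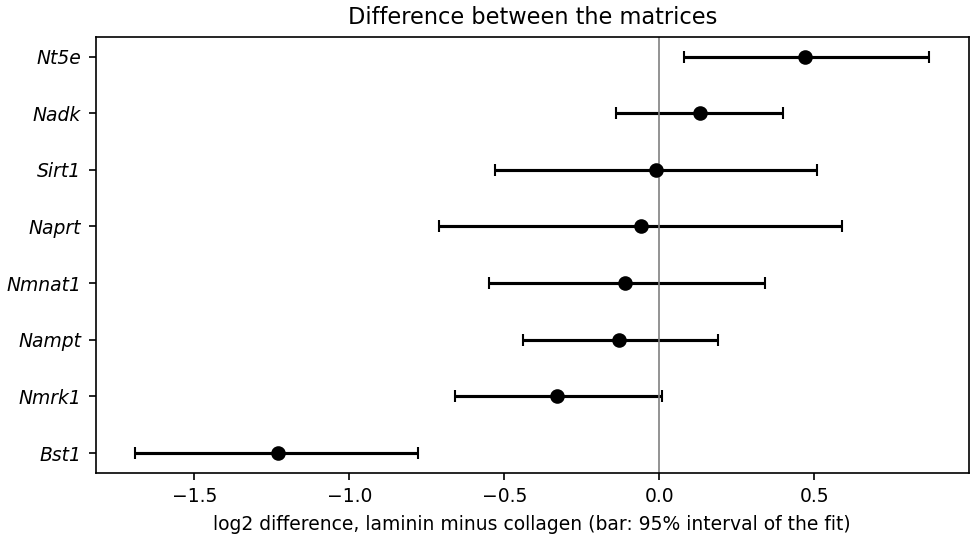
Log2 difference, laminin minus collagen, of the 8 genes that passed the filter, with 95% intervals from the edgeR fit. Bst1 lies at -1.23 with an interval of -1.69 to -0.78, Nt5e at 0.47, and the intervals of the other 6 genes include 0.

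The wider pathway was followed in lists of genes taken by function. Beside the 10 genes, these lists held 110 genes of the table, of which 74 were tested, 10 of them clock genes rather than genes of NAD metabolism. In edgeR, 0 were called higher and 0 lower. At an unadjusted p under 0.05 in edgeR, 7 were higher (3 of them clock genes) and 4 lower, against 6.70% and 4.95% of all genes. DESeq2 called 1 of them higher and 0 lower, against 1.30% and 0.460% of the 12185 genes to which it gave an adjusted p. Their median log2 difference was 0.04, beside 0.01 over all genes tested, and 3 of the 74 had groups that did not overlap, against 3.23% of all genes.

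The gene called in DESeq2 was Adora1, a receptor for the adenosine that CD73 produces. Adora1 stood at 37.8, 67.7, 71.5, 39.4 and 55.8 CPM in laminin replicates 1 to 5, against 30.4, 24.5, 27.0, 29.9 and 28.6 CPM in collagen replicates 1 to 5. All 5 laminin libraries were above the collagen range, with replicates 1 and 4 the nearest to it, the same libraries that were lowest in Nt5e. The collagen libraries did not share this order, as replicate 2 was highest in Nt5e (79.4 CPM) and lowest in Adora1 (24.5 CPM). The means were 54.4 ± 15.6 CPM in laminin and 28.1 ± 2.40 CPM in collagen (SD, n = 5 each), a log2 difference of 0.95 (SE 0.18, 95% interval 0.56 to 1.35). It missed the threshold in edgeR (adjusted p = 0.0621) and passed in DESeq2 (0.000607), in a range of 0.000607 to 0.411 over the alternatives. Exons of Mybph on the opposite strand overlap 20.1% of the exonic bases of Adora1, so its value is uncertain if strand was not used in counting.

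In the same list of ecto-nucleotidases and adenosine handling, 9 of 18 genes were tested, 0 were called in edgeR and 1, Adora1, in DESeq2. Enpp2 (autotaxin), which makes lysophosphatidic acid and belongs to the ecto-nucleotide pyrophosphatase and phosphodiesterase family, stood at 14.6 ± 4.31 CPM in laminin and 25.4 ± 6.87 CPM in collagen, a log2 difference of -0.78 (SE 0.23, adjusted p = 0.225 in edgeR). The groups overlapped, at 8.29 to 20.4 CPM in laminin and 18.8 to 35.2 CPM in collagen. Slc29a1, an equilibrative transporter of adenosine, was at 176 ± 20.1 CPM in laminin and 183 ± 20.6 CPM in collagen, and Enpp1, which hydrolyses extracellular nucleotides, at 41.5 ± 9.96 and 45.3 ± 9.37 CPM in the same order (both named after their values were seen).

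Most genes for NAD synthesis from tryptophan were not measurable: 1 of 9 was tested, and 4 had no count in any library. The tested one, Afmid (a formamidase of that route), gave a log2 difference of 0.03 (SE 0.17). In the salvage list, which includes Nampt, Naprt, Nmnat1 and Nmrk1, 8 of 9 genes were tested, 0 were called and the median was -0.08. Pnp, which splits nicotinamide riboside and purine nucleosides, was at -0.30 (SE 0.14, adjusted p = 0.441 in edgeR).

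For NADP supply, 3 of 3 genes were tested and 0 were called. Nnt, the mitochondrial transhydrogenase that makes NADPH from NADH, was at 173 ± 19.0 CPM in laminin and 150 ± 10.4 CPM in collagen (log2 difference 0.21, SE 0.10), and Nadk2, the mitochondrial NAD kinase, at 0.14 (SE 0.15). Of the genes that repair or hydrolyse altered NAD(P)H, 4 were tested and 0 called, with Nudt12 at 0.34 (SE 0.27) and Naxe at -0.24 (SE 0.18). Of those that remove nicotinamide, the 1 tested was Aox1, an aldehyde oxidase, at -0.26 (SE 0.23).

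Among consumers of NAD, all 7 sirtuins were tested, 0 were called and their median difference was -0.02. Sirt4, a mitochondrial sirtuin, was at 0.31 (SE 0.18) and Sirt6, a chromatin-bound one, at -0.24 (SE 0.21). Of 16 tested poly- and mono-ADP-ribosyltransferases 0 were called, with 8 above and 8 below 0. Tnks (tankyrase) was at 0.39 (SE 0.47), with 22.0 to 220 CPM within collagen alone, and Parp3 at 0.34 (SE 0.16). At an unadjusted p under 0.05 in edgeR, 0 of the 16 were higher and 2 lower, Parp2 and Parp16 (named after their values were seen). Over all genes these shares were 6.70% and 4.95%. Of 7 tested genes that remove ADP-ribose 0 were called. Nudt5, an ADP-ribose hydrolase, was at 45.9 to 54.4 CPM in laminin and 55.3 to 80.2 CPM in collagen, groups that did not overlap. Its difference was -0.30 (SE 0.12, adjusted p = 0.344 in edgeR). Exons of Sec61a2 on the opposite strand overlap 14.0% of the exonic bases of Nudt5, so its value is uncertain if strand was not used in counting. Adprh was at -0.15 (SE 0.16).

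Cyclic ADP-ribose and NAADP, products of the BST1 and CD38 family, release calcium through ryanodine receptors and TPC channels. Of 11 genes of calcium release, 7 were tested and 0 called. The 3 ryanodine receptor genes did not pass the filter. Itpr1 and Itpr2, receptors for inositol trisphosphate, were at 0.59 (SE 0.26) and 0.66 (SE 0.35), with adjusted p of 0.412 and 0.494 in edgeR. The lowest adjusted p of the list was 0.279. At an unadjusted p under 0.05 in edgeR, 2 of the 7 were higher, Itpr1 and Itpr3 (named after their values were seen), and 0 lower. Over all genes these shares were 6.70% and 4.95%. In the transport list 6 of 9 were tested and 0 called, with Gja1 (connexin 43, a channel known to pass NAD) at -0.32 (SE 0.16) and Slc25a33 at 0.10 (SE 0.17). Of the regulators that bind SIRT1, the inhibitor Ccar2 was at 0.25 (SE 0.11) and Rps19bp1 at -0.24 (SE 0.19), and 0 of 2 were called.

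Nampt is known as a target of the circadian clock, and so the clock genes were listed as well. All 10 that were tested had a difference above 0, as did 5580 of all 10789 genes, and their median was 0.32, beside 0.01 over all genes. In edgeR 0 were called, with 3 at an unadjusted p under 0.05, and DESeq2 also called 0. Cry1, a repressor of the clock, was at 36.1 to 49.8 CPM in laminin and 21.2 to 34.9 CPM in collagen, a difference of 0.45 (SE 0.14, adjusted p = 0.259 in edgeR), and Nr1d2 was at 0.43 (SE 0.25). The median was 0.48 without the collagen libraries of letter B and 0.20 without those of letter D. Without letter B, 9 of the 10 were above 0 and 5 were called in edgeR. That fit kept 2 collagen libraries and called 1206 of all genes higher and 877 lower, so nothing is read from the 5.

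**Figure D5:**
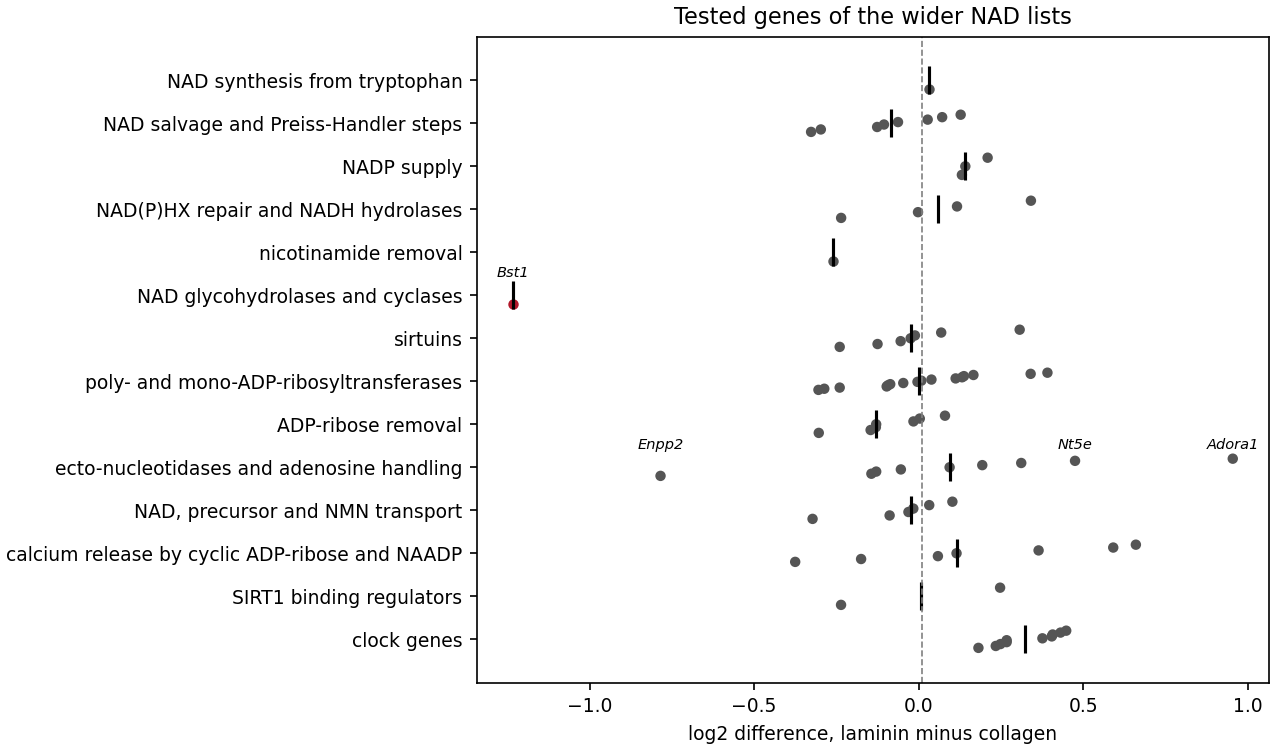
Log2 difference, laminin minus collagen, of each tested gene (points) in the lists of NAD metabolism and related functions, with the list median (black bar) and the median of all genes tested (dashed line, 0.01). Bst1 (red) lies at -1.23, Enpp2 at -0.78 and Adora1 at 0.95, and all 10 clock genes lie to the right of 0.

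Markers of cell types known for BST1 or possible in the culture were summed beside these results. Leukocyte and myeloid markers summed to 52.8 to 93.8 CPM in laminin and 51.8 to 90.0 CPM in collagen. Of 13 such genes 2 averaged 1 CPM or more, Cd14 and Cd68, and Adgre1, Ly6g and S100a9 were among those with no count. Bone marrow stromal markers summed to 153 to 207 CPM in laminin and 105 to 263 CPM in collagen, with Kitl at 185 CPM in laminin and 178 CPM in collagen on average, and the other 4 genes below 1 CPM (Ebf3 at 0). Fibroblast and stellate markers summed to 661 to 825 CPM in laminin and 652 to 809 CPM in collagen, with 8 of 14 at 1 CPM or more and Lrat and Thy1 at 0. Fbln2 carried most of that sum, at 656 CPM in laminin and 633 CPM in collagen, and other genes of the list differed in both directions, with Pdgfrb at 3.44 CPM in laminin and 0.620 CPM in collagen, Pdgfra at 9.30 and 4.01 CPM, and Dcn at 3.47 and 8.10 CPM in the same order (named after their values were seen). None of the 14 was called in edgeR, where Pdgfrb did not pass the filter on low counts. Lum, Reln, Col1a2 and Acta2 had 1, 3, 8 and 11 counts over all libraries. The lack of a call therefore says little for these genes, Pdgfrb, Lrat and Thy1. Endothelial markers summed to 1.26 to 2.72 CPM in laminin and 1.34 to 2.32 CPM in collagen, with 1 of 8 at 1 CPM or more and Cdh5, Kdr and Clec4g at 0. Hepatocyte markers summed to 148 to 198 CPM in laminin and 98.8 to 154 CPM in collagen, with 5 of 15 at 1 CPM or more. Hnf4a averaged 109 CPM in laminin and 80.0 CPM in collagen, Alb 35.5 and 18.8 CPM, and Ttr 11.8 and 6.26 CPM. Ttc36 averaged 10.6 and 10.4 CPM, and Apoa1, lower in laminin, 1.24 and 2.31 CPM in the same order. Cyp2e1 and Cyp3a11 were at 0, and 0 of the 15 were called in edgeR. The part of these cell types in the difference of Bst1 was not tested. Of 5 red cell genes, the 4 haemoglobin genes had no count, and the sum reached 0.230 CPM in laminin and 0 CPM in collagen.

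Within each matrix, the libraries that were high in Bst1 were compared with all other genes at a mean of 5 CPM or more. Over the 10 libraries, deviations from the matrix mean (log2 CPM) were most like those of Bst1 in Irak2 (r = 0.965, rho = 0.976), followed by St3gal6, Ccdc136, Rin1 and Bdnf (r from 0.929 to 0.919, rho from 0.818 to 0.903). They are the top 5 of 9896 genes looked over, share library and depth, and are given as a description. Without laminin replicates 1 and 2, the libraries farthest from the others in Bst1, r was 0.938 for Irak2, 0.760 for Rin1 and 0.552 to 0.646 for the other 3, so that for those 3 it rests largely on the 2 libraries. None of the 5 was called between the matrices in edgeR, where Irak2, an adaptor kinase of interleukin-1 and Toll-like receptor signalling, gave 0.14 (SE 0.13) and Bdnf -0.39 (SE 0.21).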

How the data were processed

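Per the labels' protocols, 30 ng of total RNA entered a stranded mRNA kit. The authors deposited whole-number counts per gene symbol, 1 column per library, with no normalization. GRCm38 (mm10) and DESeq2 are named in the submitters' processing notes, while aligner, counting program, strand option and gene models are not given in the sources here.

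The default filterByExpr rule kept 10789 of 18407 genes (3984 had no count). Libraries were scaled with TMM factors, and laminin was compared with collagen with edgeR 4.0.16 in R 4.3.3, by its two-sided quasi-likelihood test with matrix as the single factor. Benjamini-Hochberg adjustment ran over the whole table, and calls needed an adjusted p under 0.05. The SE was the absolute log2 difference over the root of F, and its 95% interval used the t quantile at the fit's degrees of freedom. Log2 CPM used a prior count of 2. Lengths and positions came from GENCODE M21 (GRCm38), matched by symbol for 18338 genes.

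The genes and lists were chosen with earlier results of these data known. The text names the 10 genes, the 2 largest differences of each wider list, genes around Bst1 and the 5 genes most like it. DESeq2 1.42.0, limma-voom (limma 3.58.1), other scalings and filters, the replicate number as a block, single libraries or code letters left out, a length and GC offset (splines, 5 degrees of freedom each) and 1 surrogate variable (sva 3.50.0) were the alternatives.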

Additional observations from a re-analysis of the deposited data

Results flagged for a closer look

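There were 3 values that stood apart from the other 4 libraries of their matrix by Dixon's criterion on log2 CPM, a count that holds for that scale only, in 70 groups of 5 libraries (35 named genes), where chance gives about 5% of groups, or 3.5. Afmid was at 7.85 CPM in collagen replicate 2, against 12.8 CPM in the next library. Nadk was at 127 CPM in laminin replicate 4, against 155 CPM in the next. Nnt was at 206 CPM in laminin replicate 4, against 168 CPM in the next.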

How the results depend on the processing

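The log2 difference of Bst1 moved away from its main value of -1.23 by less than the spread between replicates (0.37) in all 23 alternatives. Over all genes, calls higher and lower were 15 and 1 with all libraries, 158 and 56 in DESeq2, 26 and 3 with no filter, 2 lower with 1 CPM in 5 libraries, 78 and 26 with the length and GC offset, 335 and 103 with 1 surrogate variable, 1206 and 877 without letter B, 5 and 0 without D, 1 and 0 without E, and 3 and 2 without F. Leaving out single libraries gave 0 to 54 higher and 0 to 10 lower. The cause of these shifts was not tested. With the replicate number as a block there were 0 and 0 (1049 at an unadjusted p under 0.05), and 0 of the 10 genes were called. Deviations of same-numbered libraries correlated from -0.327 to 0.483. Libraries of different number were not compared, so these values cannot decide whether the numbers pair the libraries.

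The 10 genes held 0 called lower without letter D, E or F, and 0 to 1 without single libraries. Of the other pathway genes, clock genes included, 1 was called higher in DESeq2, 3 with 1 surrogate variable, 13 (and 5 lower) without letter B, and 0 to 1 without single libraries. Small differences changed sign without passing. Sirt1 was at 0.04 in limma-voom and with the replicate block, 0.54 without letter B, 0.09 without E and -0.16 to 0.15 without single libraries. Naprt was at 0.12 with 1 surrogate variable, 0.21 without D, 0.36 without E and -0.31 to 0.06 without single libraries. Nmnat1 was at 0.00 with 1 surrogate variable and -0.22 to 0.01 without single libraries, and Nadk at -0.11 without B and -0.02 without E. Nampt, Nmrk1 and Nt5e kept their direction in all 23 and none of the 7 genes beside Bst1 passed in any.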
